A study of Mus musculus with 78 samples.

Results

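The 9 genes described here were grouped as goblet cell and mucus genes: Muc2, Zg16, Fcgbp, Clca1, Tff3, Agr2, Spdef, Spink4 and Guca2a. Whole tissue does not show which cells made each transcript. They were chosen by symbol from the 20673 genes of a deposited mouse RNA-seq table, and all 9 passed the filter on low values in both the cecum and the colon. The study kept C57BL/6 mice under a circadian rhythm disorder schedule (CRD) or under a fixed cycle of 12 h light and 12 h dark (CON), and took tissues at labelled ages of 18 months and 8 weeks. The CRD schedule ran in stages: 4 weeks in which day and night were swapped every 3 days, 3 weeks of 48 h light and 48 h dark in turn, and 1 last week of constant light. Of 78 libraries, 36 came from the large bowel. The cecum gave 4 CRD and 4 CON libraries at 18 months, and 5 CRD and 5 CON libraries at 8 weeks. The colon gave 4 CRD and 5 CON libraries at 18 months, and 5 CRD and 4 CON libraries at 8 weeks. The other libraries came from hippocampus, hypothalamus and peripheral blood mononuclear cells (PBMC).

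Goblet cells are epithelial cells of the gut that store mucin in granules and release it as the mucus that separates bacteria from the tissue. Muc2 is the gel-forming mucin that builds this mucus; it is assembled in the endoplasmic reticulum with the help of the disulfide isomerase Agr2, carries dense O-linked glycans, and is packed with partner proteins such as Fcgbp, Clca1 and Zg16. In the mouse colon the inner mucus layer is attached and largely free of bacteria, and the transcription factor Spdef drives the maturation of the cells that make it.

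Levels are given as FPKM, fragments scaled to transcript length and library total, which are per length and so can be set side by side between genes. Differences are on the scale log2(FPKM + 1), with their standard error (SE), from limma fitted to all genes. A gene is called when its Benjamini-Hochberg adjusted p is below 0.05. The depth of the libraries is unknown, since the table holds no counts. The labels do not say that replicates came from separate animals, so the spread behind each p-value is that of these libraries and may be technical. In whole tissue, fewer goblet cells and less RNA per cell cannot be told apart.

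Some libraries stood apart in ways that touch the comparisons. The Y-linked genes Ddx3y and Kdm5d were at or below 0.04 FPKM in every 18-month gut library except CON replicate 5 of the colon, which had 11.3 FPKM of Ddx3y, while all 8-week gut libraries had 10.3 to 16.7 FPKM of Ddx3y. Age and the presence of Y-linked transcripts cannot be told apart in these data, and the labels used here give no sex. Hoxb13, a homeobox gene of the distal colon and rectum, was at or below 0.09 FPKM in all cecum libraries. In the colon it ranged from 27.3 to 178 FPKM in 18-month CRD libraries, 0.09 to 40.3 FPKM in 18-month CON libraries, 0.04 to 75.1 FPKM in 8-week CRD libraries and 1.82 to 79.4 FPKM in 8-week CON libraries. The labels do not give the position along the colon at which tissue was taken. The highest Hoxb13 was in 18-month CRD replicates 3 and 4 of the colon, with 178 and 159 FPKM, and the main results that rest on these libraries are given with and without them. The smooth muscle gene Myh11 reached 1212 FPKM in 18-month CRD replicate 5 of the colon, against 226 to 466 FPKM in the other 17 colon libraries. The pan-epithelial markers, 10 genes summed, ranged from 8320.2 to 10545 FPKM in 18-month CRD colon and from 7254 to 10346 FPKM in 18-month CON colon.

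All 9 genes are protein-coding. In the GENCODE vM21 annotation of GRCm38, Muc2 lies at chr7:141690340-141754693 on the plus strand, Fcgbp at chr7:28071236-28120862 on the plus strand and Zg16 at chr7:127050156-127087328 on the minus strand. Spdef at chr17:27714352-27728955 and Tff3 at chr17:31125306-31129646 are both on the minus strand. Spink4 at chr4:40920052-40931395 and Guca2a at chr4:119637704-119639471 are both on the plus strand. Agr2 lies at chr12:35992907-36004087 on the plus strand, and Clca1 at chr3:145003817-145032776 on the minus strand. Zg16 alone overlaps other annotated genes, Gm44939 and Gm22747 on the opposite strand, which share 0 of its 1257 exon bases.

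RefSeq promoters, running from 250 bases before to 50 bases after the start site on GRCm38.p6, were matched for 5 of the 9 genes; Zg16, Clca1, Tff3 and Spink4 had no entry. Those of Muc2 (chr7:141690090-141690389, plus strand), Agr2 (chr12:35992675-35992974, plus strand) and Spdef (chr17:27728902-27729201, minus strand) are printed because these 3 genes were the ones that lay lower together in most 18-month CRD colon libraries. Capitals mark CANNTG, the E-box letters read by basic helix-loop-helix factors, a class that holds both the clock proteins and the goblet cell regulator Atoh1.
Muc2: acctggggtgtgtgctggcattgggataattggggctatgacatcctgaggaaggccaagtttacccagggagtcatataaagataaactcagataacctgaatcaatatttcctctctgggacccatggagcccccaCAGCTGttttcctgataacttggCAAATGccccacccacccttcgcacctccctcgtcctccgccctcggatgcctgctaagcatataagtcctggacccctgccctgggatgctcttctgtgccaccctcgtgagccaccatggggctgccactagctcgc
Agr2: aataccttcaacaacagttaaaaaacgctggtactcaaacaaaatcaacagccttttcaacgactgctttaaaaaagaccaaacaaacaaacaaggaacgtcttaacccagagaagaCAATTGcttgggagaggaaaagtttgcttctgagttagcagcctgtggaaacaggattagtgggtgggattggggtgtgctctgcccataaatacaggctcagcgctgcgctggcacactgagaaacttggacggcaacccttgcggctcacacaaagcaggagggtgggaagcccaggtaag
Spdef: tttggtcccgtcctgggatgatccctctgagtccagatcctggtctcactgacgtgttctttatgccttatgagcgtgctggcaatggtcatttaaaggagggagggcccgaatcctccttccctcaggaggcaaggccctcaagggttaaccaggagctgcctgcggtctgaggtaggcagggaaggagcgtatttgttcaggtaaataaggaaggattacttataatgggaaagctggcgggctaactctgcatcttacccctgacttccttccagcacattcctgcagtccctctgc
The 3 windows differ in these letters. CANNTG occurred 2 times before Muc2, 1 time before Agr2 and 0 times before Spdef, and the windows of Fcgbp and Guca2a held 4 and 3 matches. Of 32851 RefSeq promoters of the same length, 72.3% hold CANNTG. The palindrome CACGTG, a subset of CANNTG bound by the clock factors, was in 0 of the 5 windows and is in 7.15% of promoters. Both strands were searched for every motif. GATAA, letters of the GATA factors, occurred 4 times before Muc2 and 2 times before Guca2a, against 25.4% of promoters with any. The forkhead-type letters TGTTTNC occurred 1 time each before Muc2, Agr2 and Guca2a (20.5% of promoters). The KLF-type letters CCCACCC occurred 2 times before Muc2, where the matches overlap, and 2 times in the Agr2 window, 1 before and 1 after the start site (17.5% of promoters). The CDX-type letters TTTATNG occurred 1 time, before Agr2 (10.9% of promoters). A match describes the letters only, and no binding was measured.

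These genes are among the most abundant transcripts of the large bowel. Ranked by group mean among all 20673 genes, Guca2a stood 4th to 5th in the cecum and 3rd to 12th in the colon, over the 4 groups of each tissue. Zg16 stood at rank 8 to 18 in the cecum and 2 to 7 in the colon, and Spink4 at 6 to 19 in the cecum and 6 to 18 in the colon. Together the 9 genes made up 1.62% to 3.38% of the summed FPKM of a cecum library and 2.57% to 7.59% of that of a colon library. The transcription factor Spdef was the exception in level, at rank 4611 to 5207 in the cecum and 1022 to 1897 in the colon. In hippocampus, hypothalamus and PBMC, tissues without goblet cells, no library had more than 3.08 FPKM of any of the 9 genes. When the 4 groups of 1 tissue were ordered by mean, the ranges of every pair of neighbours in that order overlapped, for each gene and in both tissues.

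**Figure D1:**
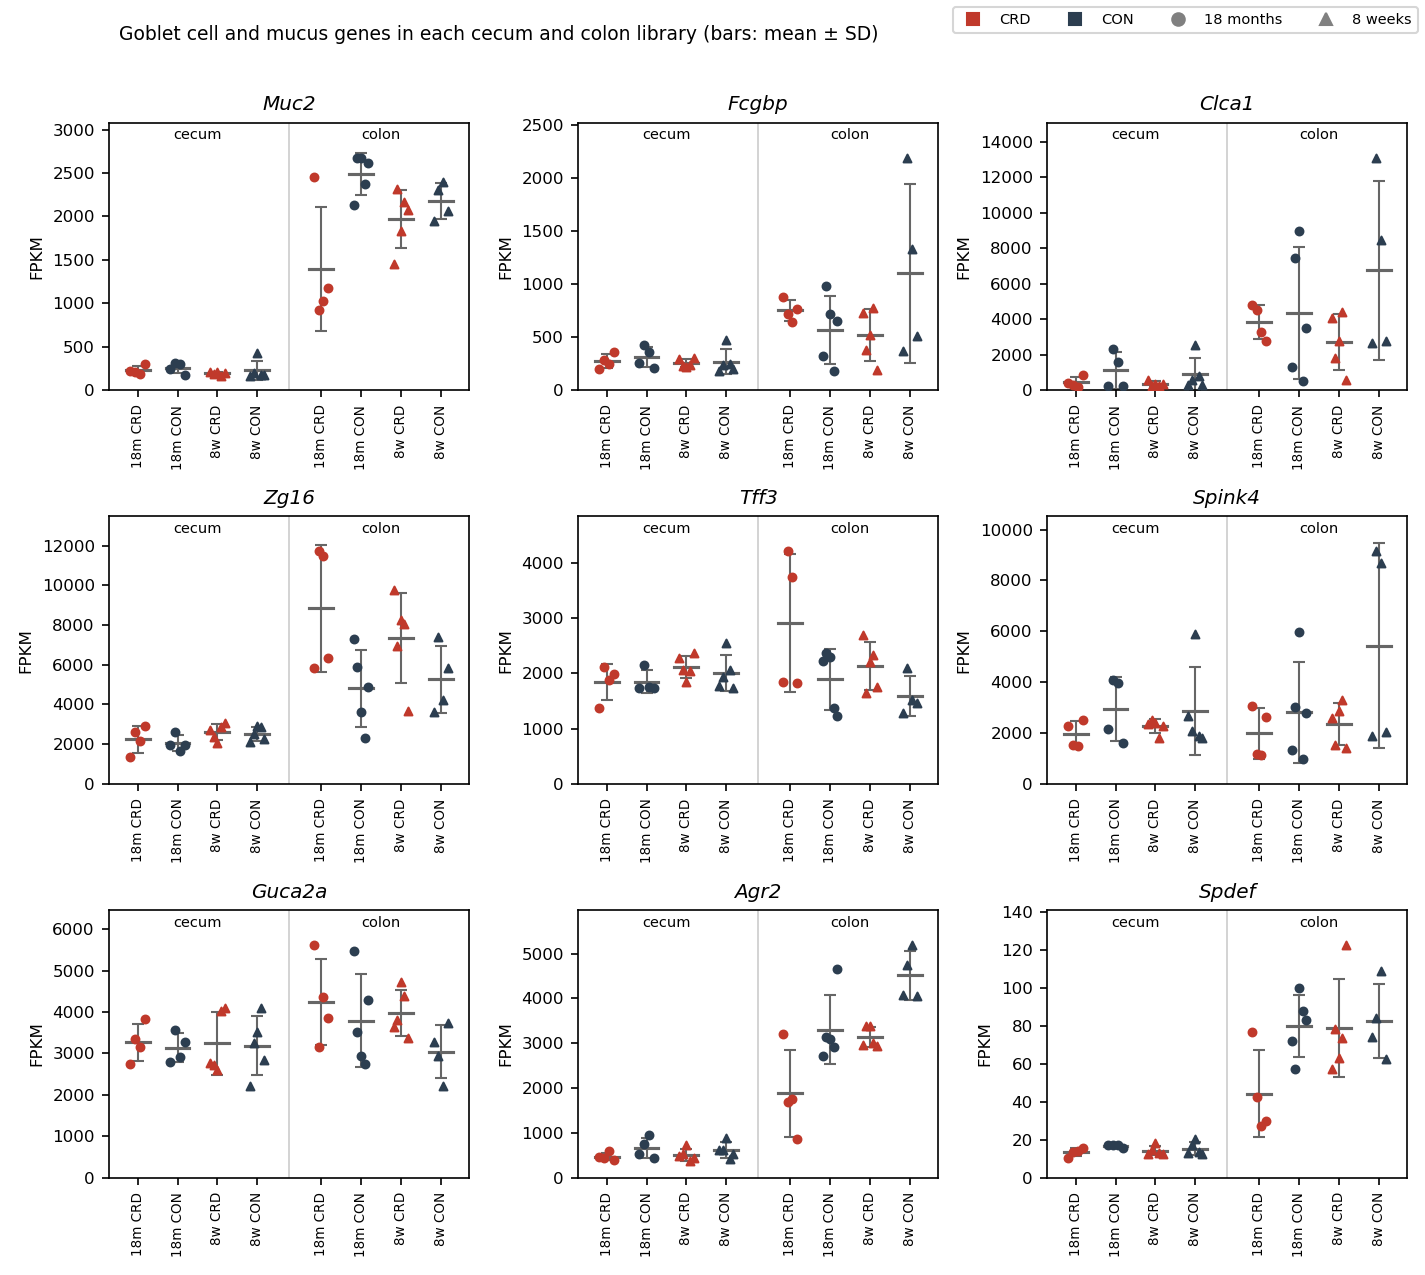
FPKM of the 9 genes in each cecum and colon library (points; linear axis from 0, a scale per gene), by tissue, age and schedule, with the group mean and SD as bars. Muc2, Agr2 and Spdef separate the cecum from the colon in all groups, while Tff3, Spink4 and Guca2a overlap. The share of all genes that separate the tissues was not counted.

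The clearest difference among the groups was between the tissues. Relative to the colon, the cecum had a lower level of the gel-forming mucin Muc2, of its folding factor Agr2, of the regulator Spdef and of the lectin Zg16 in all 4 age and schedule groups. The ion channel regulator and mucus metalloprotease Clca1 was lower in the cecum in 3 of the 4 groups, and the mucus protein Fcgbp in 2 of the 4. The small peptides Tff3, Spink4 and Guca2a were called in none of these fits. In 18-month CRD, Tff3 was called under 7 of 49 alternatives. Among them were the replicate number as a block (-0.57, adjusted p = 0.0156) and the smooth muscle covariate (-0.73, adjusted p = 0.0251). By limma across 14038 genes, 6 of the 9 genes were called in CRD at 18 months, all lower in the cecum, where 37.3% of all genes were called in either direction and 20.4% were lower. In CON at 18 months 4 of the 9 were called, where 20.1% of all genes were called and 10.7% were lower. At 8 weeks 5 of the 9 were called in CRD, beside 33.5% of all genes called and 18.8% lower. In CON at 8 weeks 6 of the 9 were called, beside 25.2% of all genes called and 12.4% lower. The median difference over the 9 genes was -1.55 in CRD and -1.15 in CON at 18 months, and -1.44 in CRD and -1.77 in CON at 8 weeks, while the median over all genes lay between -0.03 and 0.03. Cecum and colon libraries of the same number deviated together, which the main fit does not use, since it treats all 36 libraries as independent. The fit with the replicate number as a block is therefore given where it changed a call.

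Muc2 separated the tissues without overlap in every group. The share of all genes whose ranges separate in this way was not counted. Such separations, here and for the genes below, are descriptions only. Cecum libraries held 183 to 299 FPKM in 18-month CRD mice (225, 208, 183 and 299), against 2459, 924, 1025 and 1177 FPKM in the colon. In 18-month CON mice the cecum held 241, 316, 298 and 173 FPKM, against 2128, 2678, 2669, 2369 and 2616 FPKM in the colon. In 8-week CRD mice the cecum held 210.5, 190.3, 209.6, 164 and 199 FPKM, against 1455, 2311, 1828, 2172 and 2079.9 FPKM in the colon. Every colon library lay above every cecum library, and the nearest to the cecum were 3 of the 18-month CRD libraries. The difference between cecum and colon was -2.51 ± 0.25 (SE, adjusted p = 1.05e-08) in 18-month CRD mice and -3.30 ± 0.24 (adjusted p = 5.88e-12) in 18-month CON mice. At 8 weeks it was -3.32 ± 0.22 in CRD mice and -3.35 ± 0.24 in CON mice (adjusted p = 8.93e-13 and 5.44e-12). Without colon CRD replicates 3 and 4 the 18-month CRD value was -2.91 (adjusted p = 3.28e-08). The ratio of group means, colon over cecum, was 6.11 in 18-month CRD mice and 9.55 to 10.1 in the other groups.

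Agr2 and Spdef showed the same order, with smaller gaps. Agr2 averaged 468 ± 87.8 FPKM in the cecum and 1877 ± 978 FPKM in the colon of 18-month CRD mice (SD, n = 4 each). In 8-week CON mice it averaged 612 ± 175 FPKM in the cecum (n = 5) and 4511 ± 554 FPKM in the colon (n = 4). The Agr2 difference was -1.87 ± 0.27 in CRD and -2.34 ± 0.26 in CON at 18 months, and -2.67 ± 0.24 in CRD and -2.92 ± 0.26 in CON at 8 weeks. Spdef ranged from 10.2 to 20.5 FPKM over the 18 cecum libraries and from 27.3 to 122 FPKM over the 18 colon libraries, with no overlap. Its difference was -1.55 ± 0.24 in CRD and -2.17 ± 0.22 in CON at 18 months, and -2.37 ± 0.21 in CRD and -2.36 ± 0.22 in CON at 8 weeks. The highest adjusted p of these 8 differences was 1.2e-05. Without colon CRD replicates 3 and 4 the 18-month CRD values were -1.85 for Agr2 (adjusted p = 0.000246) and -1.79 for Spdef (adjusted p = 3.71e-05).

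Among the proteins that coat or process the mucus, Zg16, a lectin that binds and clumps Gram-positive bacteria, was abundant in both tissues. It averaged 2246 ± 674 FPKM in the cecum and 8832 ± 3195 FPKM in the colon of 18-month CRD mice (n = 4 each). In 18-month CON mice it averaged 2037 ± 404 FPKM in the cecum (n = 4) and 4799.5 ± 1933 FPKM in the colon (n = 5), and there the ranges of the tissues overlapped. Its difference was -1.96 ± 0.31 (adjusted p = 1.79e-05) in CRD and -1.15 ± 0.29 (adjusted p = 0.0053) in CON at 18 months; the CRD value was -1.49 (adjusted p = 0.00288) without colon CRD replicates 3 and 4. At 8 weeks it was -1.44 ± 0.28 (adjusted p = 0.000183) in CRD and -1.02 ± 0.29 (adjusted p = 0.0106) in CON; the last was -0.84 with an adjusted p of 0.055 when CON replicate 3 of the 8-week colon was left out.

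Clca1 varied widely within some groups. In 18-month CON mice it was 254, 2323, 1587 and 249.5 FPKM in the cecum, against 1289, 7425, 8952, 496 and 3525 FPKM in the colon. In 18-month CRD mice it was 409, 287, 194 and 829 FPKM in the cecum, against 4769.9, 4529, 3295 and 2791 FPKM in the colon. The CON ranges of the tissues overlapped and the CRD ranges did not. The highest library was 18.1 times the lowest in 18-month CON colon and 1.71 times in 18-month CRD colon. The difference was -3.34 ± 0.82 (adjusted p = 0.00207) in CRD at 18 months, -2.77 ± 0.73 (adjusted p = 0.00401) in CRD at 8 weeks and -3.13 ± 0.78 (adjusted p = 0.00332) in CON at 8 weeks. Without colon CRD replicates 3 and 4 the 18-month CRD value was -3.30 (adjusted p = 0.0174). In CON at 18 months it was -1.97 ± 0.78 and was not called (adjusted p = 0.0704). With the replicate number as a block that value was -1.87 ± 0.43 (adjusted p = 0.00483), and it was also called when cecum CON replicate 2 was left out (-2.55, adjusted p = 0.0298) or colon CON replicate 4 (-2.58, adjusted p = 0.0149).

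Fcgbp, a mucus protein with repeated von Willebrand domains that is attached to the mucin network, averaged 272 ± 68.4 FPKM in the cecum and 751 ± 96.7 FPKM in the colon of 18-month CRD mice (n = 4 each). Its difference was -1.49 ± 0.47 (adjusted p = 0.0128) there and -1.77 ± 0.44 (adjusted p = 0.00346) in 8-week CON mice. It was -0.68 ± 0.44 (adjusted p = 0.288) in 18-month CON mice and -0.87 ± 0.42 (adjusted p = 0.108) in 8-week CRD mice. Without colon CRD replicates 3 and 4 the 18-month CRD value was -1.62 (adjusted p = 0.0387). The 8-week CRD value had an adjusted p of 0.0306 with the replicate block, and was -1.19 (adjusted p = 0.0245) without colon CRD replicate 5.

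Tff3, a trefoil peptide of epithelial repair, had a median of 1955 FPKM over cecum libraries and 1975 FPKM over colon libraries. Spink4, a Kazal-type protease inhibitor of goblet cells, had medians of 2282 FPKM in the cecum and 2616 FPKM in the colon. Guca2a encodes guanylin, the peptide that activates guanylate cyclase C in the epithelium, and had medians of 3209.7 FPKM in the cecum and 3686 FPKM in the colon. For these 3 genes the ranges of the tissues overlapped in every group. The difference of Tff3 in 18-month CRD mice was -0.57 ± 0.24 (adjusted p = 0.0564), and it was -0.02 when colon CRD replicates 3 and 4 were left out. Its 95% interval in 18-month CON mice was -0.45 to 0.47, and that of Guca2a was -0.65 to 0.18. The Spink4 interval there was wider, -0.74 to 1.23.

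**Figure D2:**
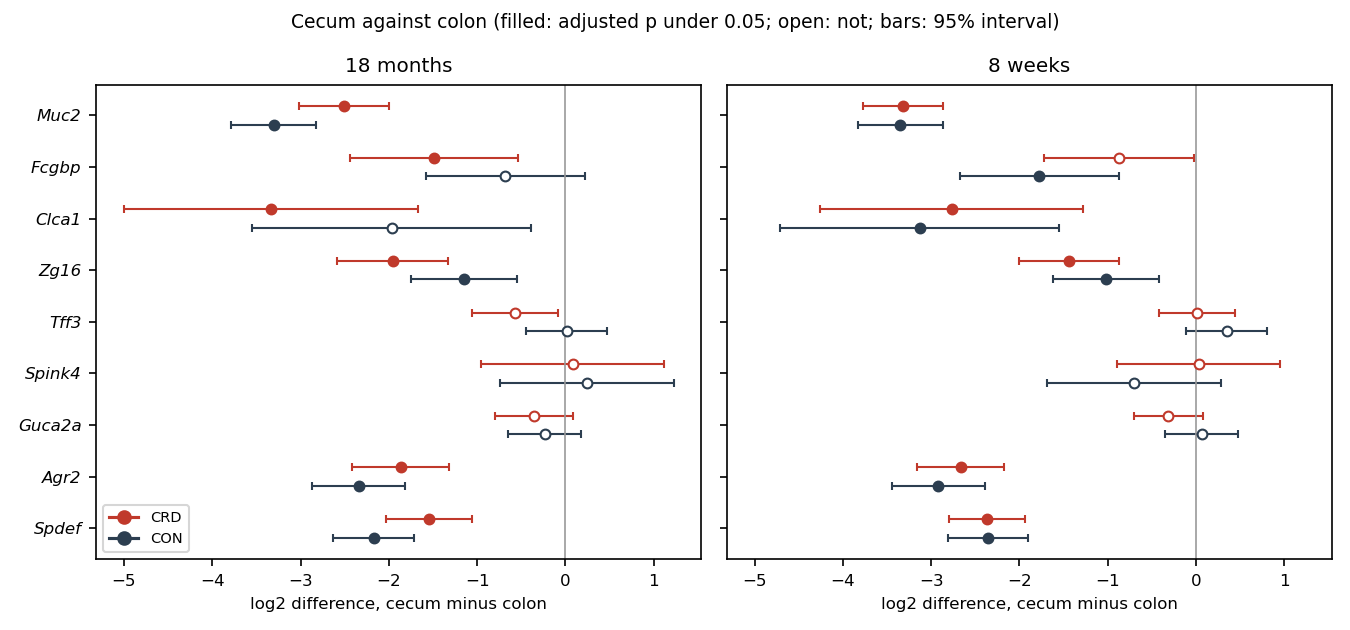
Difference between cecum and colon, log2(FPKM + 1), for each gene in the 4 age and schedule groups (points, with 95% intervals; filled where the adjusted p is below 0.05). Muc2, Agr2, Spdef and Zg16 are filled in all 4 groups, Clca1 in 3 and Fcgbp in 2, and the other 3 genes in none.

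Other goblet cell genes, by lists of known markers, lay mostly in the same direction. Of 19 other goblet cell markers, 15 were lower in the cecum in 18-month CRD mice and 2 higher, and 14, 15 and 15 were lower in 18-month CON, 8-week CRD and 8-week CON mice, with 1 higher in each. The median of that list lay between -1.34 and -1.09, against -0.03 to 0.03 over all genes. In 18-month CRD mice, the protease Capn8 differed by -1.84 and Rep15, which encodes a Rab15 effector, by -2.33, while the sulfotransferase gene Gal3st2c, which has near-identical copies and is uncertain, was higher by 3.53. Of 25 genes of mucin O-glycosylation, 11 were lower and 5 higher in the cecum of 18-month CRD mice, and 16, 15 and 16 were lower in the other 3 groups, in the order above, with 1 higher in each. The GalNAc transferase Galnt5, which starts O-glycan chains, differed by -1.38 in 18-month CRD mice and by -1.57 in 18-month CON mice. Of 15 regulators of the secretory lineage, 7 were lower and 3 higher in 18-month CRD mice, among them Creb3l1 at -1.53 and Foxa3 at -0.99, while Cdx2 was higher at 1.22. Of 10 other goblet cell secretions, 4 were lower and 2 higher there, with the antimicrobial lectin Reg4 higher at 3.75 and Pla2g10, a secreted phospholipase, lower at -0.86.

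Markers of other cell types also differed between the tissues. In 18-month CRD mice 0 of 10 pan-epithelial markers were lower in the cecum by limma and 1 was higher, with 2 at an unadjusted p below 0.05. Of 7 fibroblast markers, 7 were lower, and of 8 smooth muscle markers 4 were lower, while 8 of 10 T and NK cell markers and 5 of 7 B and plasma cell markers were higher in the cecum. Of 9 absorptive colonocyte markers 3 were lower and 3 higher, and the 9 summed to 18701 to 22393 FPKM in the cecum and 4569 to 6527 FPKM in the colon. Most of that cecum sum was Car1 alone, with 15174 to 18888 FPKM in the cecum and 1328 to 3540 FPKM in the colon. The sum therefore describes mainly 1 gene. Of 6 enteroendocrine markers 3 were lower, with sums of 101 to 163 FPKM in the cecum and 224 to 344 FPKM in the colon. The part of these cell types in the goblet cell differences was not tested. With the epithelial or the smooth muscle score as a covariate, every gene called between the tissues was still called. Of 1029 values of the 21 called differences under the alternatives run, 1028 were still called; the exception is the 8-week CON value of Zg16 above.

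The study was built to compare CRD with CON. In the colon at 18 months, Muc2, Agr2 and Spdef lay lower in CRD than in CON libraries by about the same amount, and Zg16 and Tff3 lay higher, but by limma 0 of the 9 genes were called, beside 0.54% of 14072 genes. At an unadjusted p below 0.05 there were 4, namely Muc2, Agr2, Spdef and Zg16, and 2504 of all genes. The calls over all genes were 51 higher and 25 lower, and 77 higher and 13 lower after median-of-ratios scaling.

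For Muc2 the 18-month CRD colon held 2459, 924, 1025 and 1177 FPKM in replicates 1, 3, 4 and 5, against 2128, 2678, 2669, 2369 and 2616 FPKM in CON. Of the CRD libraries, 3 lay below all CON libraries and replicate 1 lay among them. The difference was -0.95 ± 0.22 (95% interval -1.42 to -0.48, adjusted p = 0.0593). For Agr2 the CRD colon held 3214, 1677, 1755 and 863 FPKM, against 2723, 3133, 3084, 2909.7 and 4654 FPKM in CON, a difference of -0.94 ± 0.26 (adjusted p = 0.0958). For Spdef the CRD colon held 76.8, 42.3, 27.3 and 30.0 FPKM, against 71.7, 57.1, 100.0, 87.4 and 82.9 FPKM in CON, a difference of -0.94 ± 0.27 (adjusted p = 0.105). In all 3 genes the same 3 CRD libraries lay below the lowest CON library and replicate 1 did not. How many of all genes split these libraries in the same way was not counted.

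The size of these values, and whether they were called, turned on which libraries were kept. Their sign was the same in all 32 alternatives run. Without CRD replicate 1 the difference was -1.26 for Muc2 (adjusted p = 0.00192), -1.25 for Agr2 (adjusted p = 0.0119) and -1.24 for Spdef (adjusted p = 0.0175), and these 3 genes were called. Without CRD replicates 3 and 4, the libraries highest in Hoxb13, it was -0.54 for Muc2 (adjusted p = 0.36), -0.96 for Agr2 (adjusted p = 0.342) and -0.69 for Spdef (adjusted p = 0.381). With the Hoxb13 level as a covariate it was -0.80 for Muc2 (adjusted p = 0.504), -1.08 for Agr2 (adjusted p = 0.383) and -0.65 for Spdef (adjusted p = 0.675). Without CON replicate 5, the library with Y-linked transcripts, it was -0.93 for Muc2 (adjusted p = 0.0963). That library also had the highest Agr2 of the CON group, 4654 FPKM against 3133 FPKM in the next, which raises the CON mean. Agr2 was not called with or without that library. With the smooth muscle score as a covariate Muc2 was called, at -0.96 (adjusted p = 0.0478). Replicate 5 had the lowest Agr2 of the group and the highest Myh11, and without it the Agr2 difference was -0.61 (adjusted p = 0.128). Its Hoxb13, at 27.3 FPKM, was within the CON range, and its Muc2, at 1177 FPKM, was below all CON libraries. Replicate 1 also had Hoxb13 within the CON range, and its Muc2, at 2459 FPKM, was among the CON libraries. The part of tissue position in these values was not tested.

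Zg16 and Tff3 lay the other way. Zg16 was 5810.1, 11705, 11479 and 6335 FPKM in 18-month CRD colon, against 7295, 5877, 3604, 2325 and 4896 FPKM in CON. The difference was 0.91 ± 0.35 (adjusted p = 0.189). Tff3 was 1848, 4205, 3736 and 1820.5 FPKM in CRD colon, against 2219, 2367, 2286, 1373 and 1220.2 FPKM in CON, a difference of 0.56 ± 0.28 (adjusted p = 0.298). For both genes only CRD replicates 3 and 4 lay above all CON libraries. Without these 2 libraries the difference was 0.44 for Zg16 and 0.01 for Tff3, and with the Hoxb13 covariate 0.12 for Zg16 and 0.28 for Tff3. Over the 18 colon libraries, each less its group mean, Zg16 had a Pearson r of 0.86 with Hoxb13 and -0.84 with Hoxb6, a more proximal homeobox gene. For Muc2 the r with Hoxb13 was -0.26, for Spdef -0.40 and for Agr2 0.22. These correlations are descriptions, and the points share tissue pieces and libraries.

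The other 4 genes had smaller differences for their SE in the 18-month colon. Fcgbp was 877, 720.1, 646 and 762 FPKM in CRD, against 318, 979, 717, 179 and 650.2 FPKM in CON, a difference of 0.63 ± 0.54. Clca1 differed by 0.46 ± 0.77, Spink4 by -0.36 ± 0.57 and Guca2a by 0.18 ± 0.22, with adjusted p from 0.588 to 0.808 over these 4 genes. The CRD ranges of Clca1 and Fcgbp lay inside the CON ranges, which were wider.

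**Figure D3:**
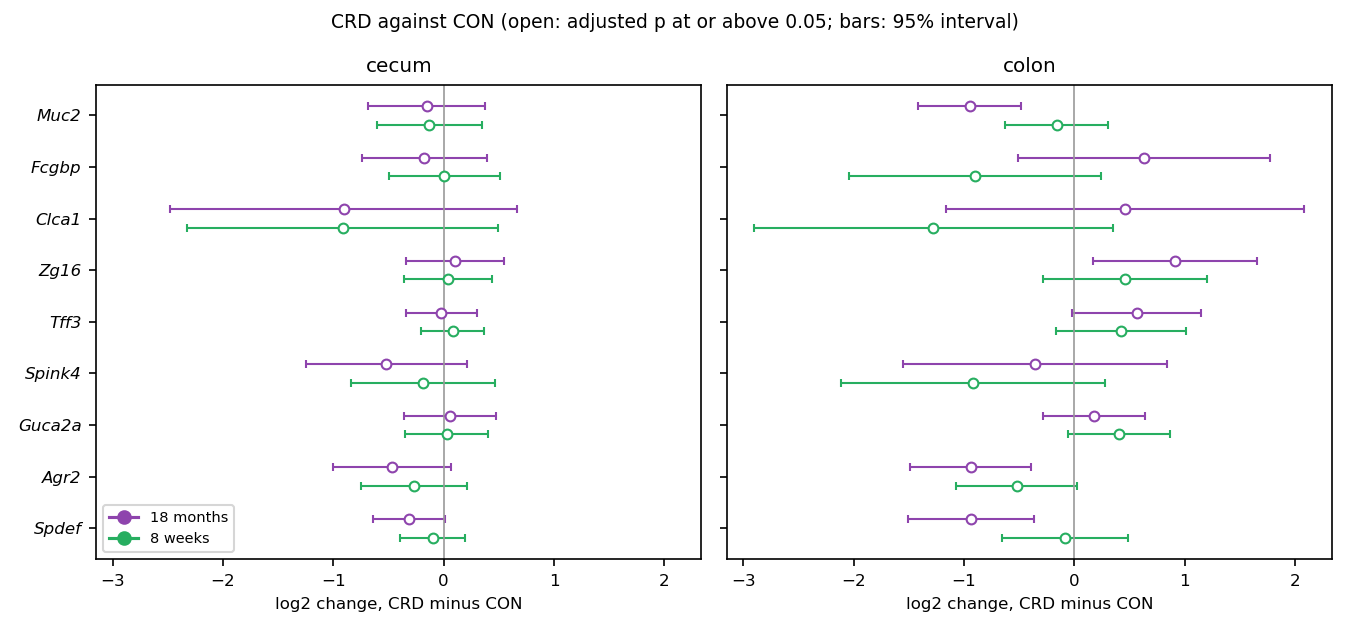
Difference between CRD and CON, log2(FPKM + 1), for each gene at 18 months and 8 weeks in the cecum and the colon (points, with 95% intervals). No gene passed an adjusted p of 0.05, and in the 18-month colon the intervals of Muc2, Agr2, Spdef and Zg16 exclude 0.

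**Figure D4:**
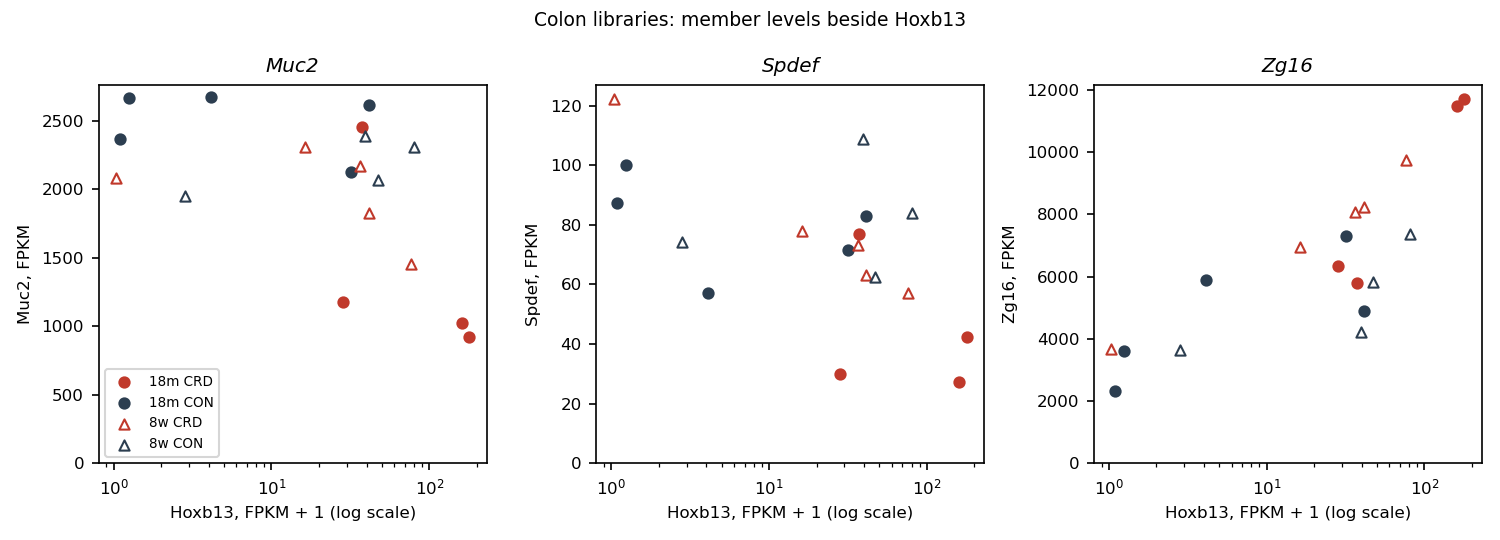
FPKM of Muc2, Spdef and Zg16 in the 18 colon libraries (linear axis from 0) against Hoxb13 (FPKM + 1, log axis), by age and schedule. Of the 18-month CRD libraries, the 2 with the highest Hoxb13 have the highest Zg16, 11479 and 11705 FPKM, and 3 of 4 have Muc2 of 1177 FPKM or less.

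The wider goblet cell lists in the 18-month colon were mixed. Of 19 other goblet cell markers 1 was called, the tetraspanin Tspan13 at -0.77 (adjusted p = 0.046), and 10 of the 19 differences were positive, with a median of 0.10 against -0.04 over all genes. Of 25 genes of mucin O-glycosylation 0 were called by limma, 15 had an unadjusted p below 0.05, and 19 of the 25 differences were negative, with a median of -0.42; the GalNAc transferase Galnt12 differed by -0.61 (adjusted p = 0.0516). Of 25 genes of protein folding and endoplasmic reticulum stress 0 were called and 8 had an unadjusted p below 0.05, with 22 negative differences and a median of -0.27; the disulfide isomerase Pdia5 differed by -0.75 (adjusted p = 0.064) and Xbp1 by -0.47. Of 15 secretory regulators 0 were called and 4 had an unadjusted p below 0.05, with Creb3l4 at -0.92 and the intestinal homeobox gene Cdx2 at -0.61. Beside these, 9 of 10 pan-epithelial markers had positive differences with a median of 0.04, and all 10 T and NK cell markers had negative ones with a median of -0.74, with 0 called in either list. The T and NK cell markers summed to 12.1 to 25.0 FPKM in CRD and 19.6 to 110.2 FPKM in CON. Smooth muscle markers summed to 2629.7 to 15828 FPKM in CRD and 2713 to 5258 FPKM in CON. Their part in the goblet cell values was not tested beyond the covariate fits above.

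In the colon at 8 weeks 0 of the 9 genes were called by limma, beside 0.0142% of all genes, and 0 had an unadjusted p below 0.05. Agr2 was 2967, 3383, 3378, 3012 and 2933 FPKM in CRD libraries, against 4067, 4741, 5188 and 4049 FPKM in CON libraries. All CRD libraries lay below all CON libraries, and the difference was -0.52 ± 0.26 (adjusted p = 0.733). The share of all genes whose groups separate in this way was not counted, so the separation is a description only. The T and NK cell markers also lay apart in these libraries, with sums of 71.0 to 251 FPKM in CRD and 25.5 to 70.4 FPKM in CON, and their part in the Agr2 values was not tested. Muc2 was 1455, 2311, 1828, 2172 and 2079.9 FPKM in CRD, against 1951, 2310.3, 2392 and 2067 FPKM in CON, and the groups overlapped (-0.16 ± 0.22). Spdef differed by -0.09 ± 0.27. Clca1, Fcgbp and Spink4 had the largest negative values, -1.28 ± 0.77, -0.90 ± 0.54 and -0.92 ± 0.57. In each of these 3 genes CON replicates 3 and 4 stood above all other libraries of that age, with 13100.1 and 8473 FPKM of Clca1 and 9146 and 8681 FPKM of Spink4. Guca2a, Tff3 and Zg16 had positive differences of 0.40 ± 0.22, 0.42 ± 0.28 and 0.46 ± 0.35.

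In the cecum 0 of the 9 genes were called at either age by limma, and 0 had an unadjusted p below 0.05. Over all 13747 genes 0.0291% were called at 18 months and 0.00727% at 8 weeks. At 18 months Spdef was 10.2, 13.6, 14.2 and 15.4 FPKM in CRD, against 16.9, 16.9, 16.9 and 15.8 FPKM in CON. All CRD libraries lay below all CON libraries, a difference of -0.31 ± 0.15 (adjusted p = 0.323). How many of all genes separate the groups here was not counted. The median of all genes in this comparison was -0.10, and with median-of-ratios scaling, which moved that median to 0.00, Spdef differed by -0.19 ± 0.16. Agr2 was 466, 427, 591 and 389 FPKM in CRD, against 531, 755, 939 and 442 FPKM in CON (-0.46 ± 0.25, adjusted p = 0.367). Muc2 was 225, 208, 183 and 299 FPKM in CRD, against 241, 316, 298 and 173 FPKM in CON (-0.15 ± 0.25), and the groups overlapped. Clca1 had the largest value, -0.91 ± 0.75, with 2323 and 1587 FPKM in CON replicates 2 and 3 and at most 829 FPKM in the other 6 libraries. The remaining 5 genes had differences between -0.52 and 0.10. The B and plasma cell markers summed to 233 to 596 FPKM in CRD and 446 to 1296 FPKM in CON, and all 10 pan-epithelial markers had positive differences, with a median of 0.21.

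At 8 weeks in the cecum, Muc2 was 210.5, 190.3, 209.6, 164 and 199 FPKM in CRD, against 162, 198, 426, 178 and 177 FPKM in CON. CON replicate 3 stood alone, and it was the highest of its group in every other gene of the 9 except Guca2a. The difference of Muc2 was -0.13 ± 0.22, that of Clca1 -0.92 ± 0.67 and that of Agr2 -0.27 ± 0.23, and the other 6 genes lay between -0.18 and 0.08. The T and NK cell markers summed to 139 to 179 FPKM in CRD and 55.2 to 131 FPKM in CON of these libraries.

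The CRD effect was then compared between ages and between tissues. In the colon, the effect at 18 months minus that at 8 weeks was called for 0 of the 9 genes by limma, beside 0.37% of all genes, with Muc2 and Spdef at an unadjusted p below 0.05, a cut that 1484 of 14072 genes met. It was -0.79 ± 0.31 for Muc2 (adjusted p = 0.392), -0.85 ± 0.38 for Spdef (adjusted p = 0.453) and -0.42 ± 0.37 for Agr2. Without 18-month CRD replicate 1 the Muc2 value was -1.10 (adjusted p = 0.0262), and without replicates 3 and 4 it was -0.38 (adjusted p = 0.611), that of Spdef -0.61 and that of Agr2 -0.44. Fcgbp and Clca1 had values of 1.53 ± 0.77 and 1.74 ± 1.09, and without replicates 3 and 4 values of 1.66 and 1.70. Zg16 had 0.45 ± 0.50, Spink4 0.56 ± 0.80, Tff3 0.14 ± 0.39 and Guca2a -0.23 ± 0.31. In the cecum 0 of 9 were called, beside 0.0364% of all genes, and 0 had an unadjusted p below 0.05. There the values were -0.33 ± 0.46 for Spink4, -0.21 ± 0.21 for Spdef, -0.19 ± 0.34 for Agr2, -0.18 ± 0.36 for Fcgbp and -0.10 ± 0.20 for Tff3. Those of Muc2, Clca1, Guca2a and Zg16 were -0.02 ± 0.34, 0.01 ± 1.00, 0.03 ± 0.26 and 0.06 ± 0.28. The CRD effect in the cecum minus that in the colon was called for 0 of 9 genes at 18 months, beside 0.0499% of all genes, with Muc2 alone at an unadjusted p below 0.05 (0.79 ± 0.34, adjusted p = 0.253), a cut that 2280 of 14038 genes met. Without colon CRD replicates 3 and 4 the Muc2 value was 0.39 (adjusted p = 0.646). Spdef had 0.63 ± 0.33, Agr2 0.47 ± 0.37, Zg16 -0.81 ± 0.43 and Tff3 -0.59 ± 0.33. Fcgbp had -0.80 ± 0.64, Clca1 -1.37 ± 1.13, Spink4 -0.16 ± 0.70 and Guca2a -0.12 ± 0.30. At 8 weeks the tissue difference in CRD effect was called for 0 of 9 genes and 0% of all genes, and 0 of the 9 had an unadjusted p below 0.05. Fcgbp had 0.90 ± 0.61, Spink4 0.73 ± 0.66, Clca1 0.36 ± 1.07, Agr2 0.25 ± 0.35 and Muc2 0.03 ± 0.32. Spdef had -0.01 ± 0.31, Tff3 -0.34 ± 0.31, Guca2a -0.38 ± 0.28 and Zg16 -0.42 ± 0.40. A different response of these genes by age or by tissue was therefore not shown.

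Between 18 months and 8 weeks 0 of the 9 genes were called by limma in either tissue or schedule. In these comparisons age cannot be told apart from the presence of Y-linked transcripts. CON replicate 5 of the 18-month colon, which has such transcripts, was kept in. In CRD colon, where 0.377% of all genes were called, 3 had an unadjusted p below 0.05, namely Agr2 (-0.89 ± 0.26, adjusted p = 0.185), Spdef (-0.89 ± 0.27, adjusted p = 0.208) and Muc2 (-0.59 ± 0.22, adjusted p = 0.336); 1404 of 14072 genes met that cut. The other 6 genes had values of 0.77 ± 0.77 for Clca1, 0.70 ± 0.54 for Fcgbp, 0.37 ± 0.28 for Tff3, 0.26 ± 0.35 for Zg16, 0.07 ± 0.22 for Guca2a and -0.30 ± 0.57 for Spink4. This comparison shares its 18-month CRD libraries with the CRD comparison above. Without replicate 1 the values were -1.20 for Agr2, -1.20 for Spdef and -0.91 for Muc2, with adjusted p of 0.0221, 0.0296 and 0.0157. Without replicates 3 and 4 they were -0.91 for Agr2, -0.65 for Spdef and -0.19 for Muc2, with adjusted p of 0.372, 0.473 and 0.795, and without replicate 5 the Agr2 value was -0.56 (adjusted p = 0.292). In CON colon (0.981% of all genes called) 0 had an unadjusted p below 0.05, and Muc2 averaged 2492 ± 239 FPKM at 18 months (n = 5) and 2180.1 ± 206 FPKM at 8 weeks (n = 4), a difference of 0.19 ± 0.22. Agr2 differed by -0.47 ± 0.26, Spdef by -0.04 ± 0.27, Zg16 by -0.19 ± 0.35, Tff3 by 0.23 ± 0.28 and Guca2a by 0.30 ± 0.22. Under the alternatives, which include leaving out each library, the Agr2 value lay between -0.60 and -0.39 and was not called. Clca1 differed by -0.97 ± 0.77, Spink4 by -0.86 ± 0.57 and Fcgbp by -0.84 ± 0.54. In the cecum 0 had an unadjusted p below 0.05 in CON (1.51% of all genes called) or in CRD (0.771%). In CON cecum Muc2 differed by 0.24 ± 0.24, Fcgbp by 0.25 ± 0.25, Clca1 by 0.19 ± 0.71, Spdef by 0.14 ± 0.15 and Agr2 by 0.11 ± 0.24. There Spink4 differed by 0.09 ± 0.33, Guca2a by 0.00 ± 0.19, Tff3 by -0.11 ± 0.14 and Zg16 by -0.32 ± 0.20. In CRD cecum Muc2 differed by 0.21 ± 0.24, Clca1 by 0.20 ± 0.71, Fcgbp by 0.07 ± 0.25, Guca2a by 0.03 ± 0.19 and Spdef by -0.07 ± 0.15. There Agr2 differed by -0.09 ± 0.24, Tff3 by -0.21 ± 0.14, Spink4 by -0.25 ± 0.33 and Zg16 by -0.25 ± 0.20. All values by age in the cecum and in CON colon were smaller than 2 times their SE.

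Within groups, the 9 genes did not vary as 1 block. After the mean of each of the 8 groups was subtracted, 27 of the 36 pairs had a positive Pearson r over the 36 libraries, with a median of 0.28. Fcgbp, Clca1 and Spink4 varied together, with r of 0.88 for Fcgbp and Clca1, 0.83 for Fcgbp and Spink4 and 0.80 for Clca1 and Spink4. Zg16 and Tff3 formed another pair, at 0.74. Guca2a had r from -0.09 (Spink4) to 0.47 (Zg16) with the other genes of the set. Muc2 had r of 0.60 with Spdef and 0.58 with Agr2, and about as much with Spink4 (0.58) and Clca1 (0.52), while Agr2 and Spdef had 0.53. These values describe libraries that share depth, dissection and composition, and no p is attached.

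The same pairs are given here for each tissue alone. In the cecum Muc2 varied with Spink4 (r = 0.90), Fcgbp (0.87) and Clca1 (0.86), while in the colon the same pairs had r of 0.43, 0.19 and 0.17 (n = 18 each). Muc2 and Tff3 had r of 0.54 in the cecum and -0.50 in the colon, and Muc2 and Zg16 0.30 in the cecum and -0.41 in the colon. The difference between tissues in r was not tested. In the cecum 1 library weighed on these values: without 8-week CON replicate 3 the median over the 36 pairs was 0.30, against 0.51 with it, Muc2 and Spink4 had r of 0.82 and Muc2 and Tff3 0.25. In the colon, without 18-month CRD replicates 3 and 4, Muc2 and Tff3 had r of -0.13 and Muc2 and Zg16 -0.19.

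**Figure D5:**
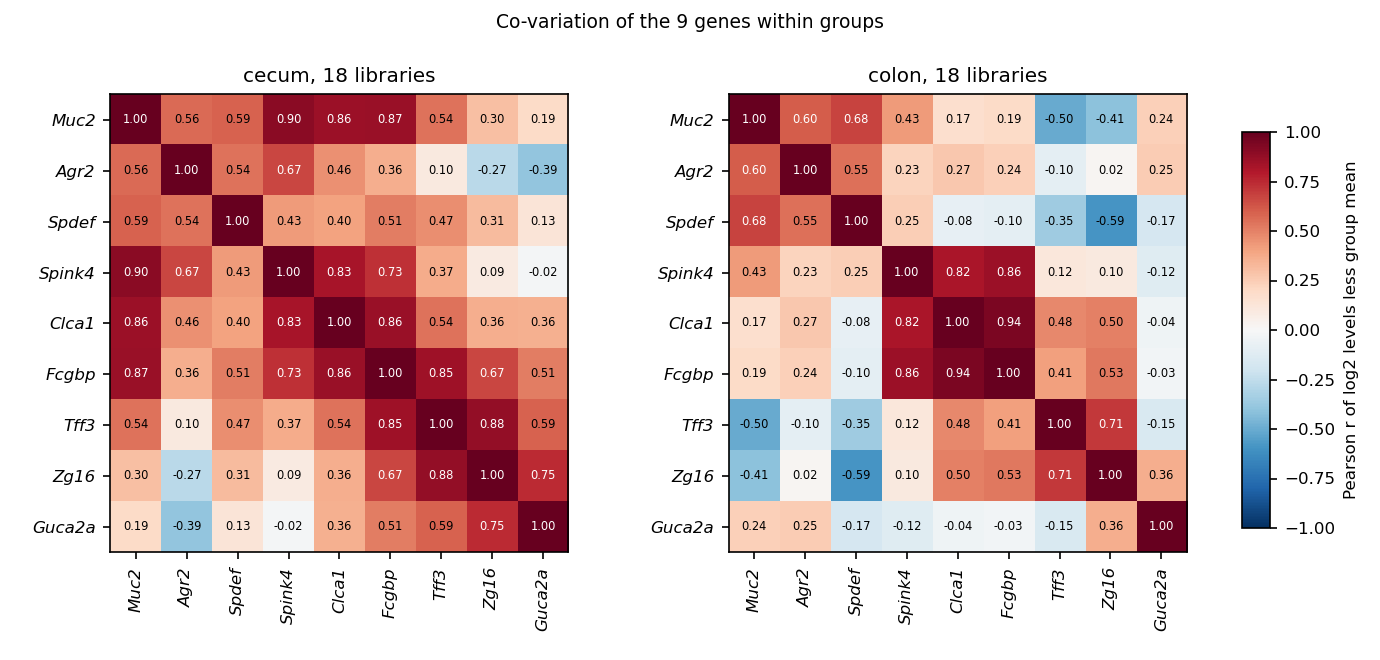
Pearson r between the 9 genes over 18 cecum libraries and over 18 colon libraries, of log2(FPKM + 1) less the group mean. Clca1, Fcgbp and Spink4 are strongly positive in both tissues, and Muc2 has r of 0.86 to 0.90 with them in the cecum and 0.17 to 0.43 in the colon, a difference that was not tested.

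Among 14038 genes, those whose within-group pattern over the 36 libraries was most like the mean of the 9 were the calpain Capn9 (r = 0.93), the actin-severing gene Scin (0.90), Mptx1 (0.89), Bcas1 (0.88), Gsdmc4 (0.87), Fer1l6 (0.86), Tpsg1 (0.84) and Pla2g4c (0.82). The mean was taken of values not scaled per gene, so genes with a wide spread, such as Clca1, weigh more in it. Capn9, Scin, Mptx1, Bcas1 and Pla2g4c are also among the closest to Fcgbp, Clca1 or Spink4 alone. Mptx1 and Gsdmc4 belong to families with near-identical copies and are uncertain. By single gene, Muc2 was most like Ermn (0.78), Kdelr3 (0.77), a receptor that returns proteins to the endoplasmic reticulum, and Pde2a (0.76). Agr2 was most like the disulfide isomerase Pdia3 (0.83), Ostc (0.82), a subunit of the oligosaccharyltransferase, and Galnt5 (0.80). Zg16 was most like Ppm1j (0.85), the chloride and bicarbonate exchanger Slc26a3 (0.84) and Pcx (0.83), which encodes pyruvate carboxylase. Fcgbp was most like Capn9 (0.92), Mptx1 (0.92) and Scin (0.92), and Clca1 most like Bcas1 (0.89), Mptx1 (0.89) and Scin (0.89). Tff3 was most like Cyp2d12 (0.78), Asb11 (0.76) and Trak1 (0.75), and Spdef most like Cacfd1 (0.72), Shf (0.68) and Sh2d6 (0.68). Spink4 was most like Pla2g4c (0.89), the lipase gene Pnliprp2 (0.87) and Fam221a (0.87). Guca2a was most like the galectin Lgals3 (0.81), the dipeptidase Dpep1 (0.79) and Rhod (0.77). Clca1 followed the antimicrobial ribonuclease Ang4, with r of 0.92 in the cecum and 0.86 in the colon; Ang4 belongs to a family with near-identical copies. Spink4 followed the goblet cell resistin Retnlb, with r of 0.92 in the cecum and 0.77 in the colon. Retnlb was 2147, 1.29, 3.12 and 2049 FPKM in 18-month CRD colon, against 239.9, 4609, 4779, 10.0 and 1650.3 FPKM in CON. The low CRD values were in replicates 3 and 4, highest in Hoxb13. The CON library with 10.0 FPKM had the lowest Hoxb13 of its group. In the 8-week CON colon, replicate 3, with 79.4 FPKM of Hoxb13, had 9732 FPKM of Retnlb. These libraries were picked after their values were seen, and a relation of Retnlb to Hoxb13 was not tested.

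For 17 pairs of a cecum and a colon library with the same group and number, deviations from the group means were compared for the 9 genes, by Pearson and by Spearman correlation, 9 permutation tests of each kind with labels permuted within groups. Clca1 had a Pearson r of 0.70 (permutation p = 0.032, adjusted p = 0.096) and a Spearman rho of 0.73 (permutation p = 0.0254), and r was 0.60 without the 2 most extreme pairs. Spink4 had an r of 0.67 (permutation p = 0.0222, adjusted p = 0.096) and a rho of 0.65 (permutation p = 0.0383), and r was 0.55 without those pairs. Guca2a had an r of -0.49 (permutation p = 0.0303, adjusted p = 0.096) and a rho of -0.50 (permutation p = 0.0327), and r was -0.35 without them. Fcgbp had an r of 0.57 (permutation p = 0.0495, adjusted p = 0.111) and a rho of 0.50 (permutation p = 0.0781), and r was 0.31 without them. None of the 9 relations passed the adjusted threshold by either measure. The other r were 0.49 for Tff3, 0.21 for Agr2, 0.15 for Zg16, 0.11 for Muc2 and -0.42 for Spdef, with permutation p from 0.0998 to 0.642, and the median over all genes was 0.29.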

How the data were processed

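Poly(A)-selected RNA from cecum, colon, hippocampus, hypothalamus and PBMC was sequenced, per the labels' protocols. The deposited table gives FPKM per gene and library, to 2 decimals, made by the authors; the submitters' processing notes name HISAT2, Bowtie2, RSEM and DESeq2 and the build GRCm38, without versions or roles. FPKM summed to 507210 to 590745 in gut libraries, with 16960 to 17440 genes above 0. Only 42.3% of low values were within 0.1 of whole multiples of the gene's smallest value, so read counts were not recovered and depth is unknown.

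Values were tested as log2(FPKM + 1), with a pseudocount of 1, in genes averaging 0.5 FPKM or more over the libraries of a fit: 13747 in the cecum (18 libraries, 4 groups), 14072 in the colon (18 libraries, 4 groups) and 14038 in both (36 libraries, 8 groups). A fold on this scale understates changes of low genes. limma 3.58.1 in R 4.3.3 (lmFit, contrasts.fit, eBayes with a mean trend) was used, with Benjamini-Hochberg adjustment over all genes of the fit and a threshold of 0.05; the script was tested on simulated data. Groups came from the labels. Correlations, permutation tests (100000 permutations, two-sided) and figures used Python 3.11.15 with numpy 2.4.6, scipy 1.17.1, pandas 2.3.3 and matplotlib 3.10.9.

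The 9 genes and the lists were chosen with earlier results of these data known. All 9 were tested in every comparison and are given singly or, in a few places, by their range; of other lists, the counts and up to 4 genes with the smallest p; of genes alike in pattern, the 8 closest to the mean of the 9 and 3 per gene, leaving out predicted genes. Hoxb13, Hoxb6, Myh11, Ddx3y, Kdm5d, Retnlb, Ang4 and Car1 were singled out after their values were seen.

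Labels give replicate numbers that recur across groups. Cecum and colon libraries of 1 group and number deviated together from their group means (17 pairs, r 0.14 to 0.60, median 0.26, all above 0.1). These numbers therefore seem to pair the tissues, and the main fit does not use this pairing. Alternatives covered pseudocounts of 0.1 and 0.5, a minimum mean of 2 FPKM, no filter, rescaling to TPM, median-of-ratios scaling, fits to only the groups compared, epithelial and smooth muscle scores as covariates, the replicate block and leaving out each library.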

Additional observations from a re-analysis of the deposited data

Results flagged for a closer look

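Each of the 9 genes in each of the 8 gut groups was checked for 1 library far from the rest of its group. Of 72 groups 8 had one, and 4 of the 8 were the same library. The check used FPKM without the log, and the genes vary together within groups. The nominal rate of about 1 in 20 therefore does not apply, and no excess over chance is shown.

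In the 8-week CON cecum, replicate 3 was the highest of 5 libraries in Muc2 (425.86 FPKM, next 198.05), Fcgbp (472.05 FPKM, next 248.04), Clca1 (2533.64 FPKM, next 764.87) and Spink4 (5885.63 FPKM, next 2685.51). In the 18-month CRD colon, replicate 1 was the highest of 4 in Muc2, at 2458.7 FPKM with the next at 1177.11 FPKM, and it is the library without which Muc2, Agr2 and Spdef were called.

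In the 18-month CON colon, replicate 5, the library with Y-linked transcripts, was the highest of 5 in Agr2, at 4654.07 FPKM with the next at 3132.57 FPKM. In the 18-month CON cecum, replicate 2 was the highest of 4 in Tff3 (2153.9 FPKM, next 1760.07), and replicate 4 was the lowest of 4 in Spdef (15.81 FPKM, next 16.92), a gap of about 1 FPKM.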

How the results depend on the processing

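For the 144 values of the 9 genes over 16 comparisons, 5436 values were computed under alternatives, and 5414 kept their side of the threshold. Of the rest, 21 passed it only under an alternative and 1 no longer passed. The sign differed in 175, of which 168 had both values smaller than their SE. Leaving out the colon's 18-month CRD replicates 3 and 4 and using Hoxb13 as a covariate were chosen after seeing the data. The cause of each change below was not tested.

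The number of the 9 genes called between CRD and CON in the 18-month colon was 1 with the smooth muscle covariate, and 0 to 3 with 1 library left out; it was 3 without CRD replicate 1, and 1 (Muc2, adjusted p = 0.0499) without 8-week CRD replicate 1. Leaving out 1 library gave 0 to 1 for the colon difference between ages in CRD effect and 0 to 3 for 18 months against 8 weeks in CRD colon. Called genes over the whole table in the 18-month colon numbered 76, against 22 to 470 with 1 library left out, 0 without CRD replicates 3 and 4 and 170 with the smooth muscle covariate.

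In 7 values the sign differed and the main value, the alternative value or both were larger than their SE. With the epithelial covariate these were Guca2a in the 18-month cecum (-0.27) and in the cecum difference between ages in CRD effect (-0.29). Without replicates 3 and 4 they were Tff3 in the colon difference between ages in CRD effect (-0.42) and in CRD colon by age (-0.19). With the Hoxb13 covariate they were Fcgbp in the 18-month colon (-0.13) and Zg16 in CON colon by age (0.27). Zg16 in the colon difference between ages in CRD effect (-0.44) was the last, also with the Hoxb13 covariate. None of these was called in either fit.

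With the replicate number as a block, 7 of the 9 genes were called between cecum and colon in 18-month CRD, 5 in 18-month CON, 6 in 8-week CRD and 6 in 8-week CON mice, and 0 in any other comparison. Same-numbered CRD and CON libraries did not deviate together (median r 0.03 in both tissues), nor did ages (-0.14 in the cecum, -0.12 in the colon), so that block shares only a number; it left 1 gene called in the 18-month colon, against 76. Depth is not known, so no limit from it can be given.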
